A study of Homo sapiens with 26 samples.

Results

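The ribosome biogenesis genes described here are 36 genes whose proteins copy, trim, modify or assemble the RNA and protein of new ribosomes. They were taken by symbol from a fixed list, and 36 of 36 were found among the 19128 genes of the knockout tables and the 19117 genes of the parental table. They fall into 6 roles. FBL, NOP56 and NOP58 belong to the box C/D guide particles, and DKC1, GAR1 and NHP2 to the box H/ACA guide particles. NCL, NPM1, NOLC1, DDX21 and LYAR are nucleolar proteins, and POLR1A, POLR1B and POLR1C are subunits of RNA polymerase I. The small subunit factors are UTP20, UTP15, NOP14, RRP9, WDR43, RRP12, PNO1, TSR1, BYSL and NAT10. The large subunit factors are BOP1, PES1, WDR12, WDR74, NOP2, NOP16, GNL3, RRP1B, RRS1, BRIX1, PPAN and MRTO4.

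Ribosomes are built in the nucleolus, where RNA polymerase I transcribes one long precursor of most ribosomal RNA. Guide particles methylate or pseudouridylate that precursor at set positions, and successive assembly factors fold and cut it into the small and the large subunit before export to the cytoplasm. Fast-growing tumour cells, those of small cell lung cancer included, depend on this supply, and MYC family transcription factors are known activators of many of the genes.

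The series measured polyA RNA in human small cell lung cancer lines and addressed the role of POU2F3, a transcription factor of tuft cells (chemosensory epithelial cells), in lines that express it. In the knockout experiment, COR-L311, NCI-H526, NCI-H1048 and NCI-H211 received by lentivirus either the control guide RNA sgNeg or 1 of 2 POU2F3 guides, sgPOU2F3e10.1 and sgPOU2F3e10.2. COR-L311 and NCI-H526 were harvested 5 days after infection and NCI-H1048 and NCI-H211 after 4 days, so harvest day and line cannot be told apart. A second set held 14 unedited, exponentially growing lines with 1 library each, namely those 4 lines and DMS114, DMS79, NCI-H128, NCI-H146, NCI-H446, NCI-H510, NCI-H524, NCI-H69, NCI-H82 and NCI-H889. The cells are edited pools, NCI-H1048 was grown in HITES medium, and the deposited sgPOU2F3 column of each line merges both guides into 1 value. Values within a line therefore carry no replicate error, and the line is the replicate (n = 4).

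Estimated depth was 10.4 to 16.7 M (mega) fragments in the sgNeg columns, 20.0 to 32.2 M in the merged sgPOU2F3 columns and 10.7 to 34.7 M in the parental libraries. POU2F3 RNA stood at 80.4% of sgNeg in COR-L311, 40.7% in NCI-H526, 30.7% in NCI-H1048 and 6.95% in NCI-H211, and an edit by Cas9 need not lower the RNA. In the parental table POU2F3 was 189 to 387 FPKM in the 4 lines chosen for knockout and at most 0.608 FPKM in the other 10. EPCAM, an epithelial marker, was 109 to 602 FPKM in those 4 lines, while the blood cell marker PTPRC and the endothelial marker PECAM1 were at most 0.161 and 0.0219 FPKM.

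Promoter windows are shown because many members share one short motif near their start. A window from 250 bases before to 50 bases after a RefSeq start on GRCh38.p14 was at hand for 30 members. The E-box CACGTG, the letters preferred by MYC with its partner MAX and read alike on both strands, lay in the windows of 15 of those 30 members (50%). It lay in 7.26% of all 35116 windows and in 12.8% of the 9690 genes of the knockout comparison that had a window. The members with it were FBL, GAR1, DDX21, LYAR, UTP20, NOP14, RRP9, WDR43, PNO1, BYSL, NAT10, PES1, NOP2, GNL3 and MRTO4. Among other assembly factors the share was 37.5% of 32 small subunit genes and 35.3% of 34 large subunit genes. It was 12.5% of 8 guide particle genes, 0 of 8 polymerase I genes and 6.35% of 63 cytosolic ribosomal protein genes. Lists outside subunit assembly held the E-box too, in 5 of 15 polymerase III genes (33.3%) and 3 of 10 MYC network genes. The E-box lay in 3 of 15 p53 target genes, 16.7% of 24 cell cycle genes and 13.4% of 67 mitochondrial ribosomal protein genes. A high share was thus not particular to subunit assembly genes. The windows below are those of 6 members from 4 roles, with the E-box in capitals, 5′ to 3′ on the gene's strand.
FBL: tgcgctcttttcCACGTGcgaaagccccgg
LYAR: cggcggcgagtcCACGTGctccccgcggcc
UTP20: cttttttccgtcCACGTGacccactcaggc
NAT10: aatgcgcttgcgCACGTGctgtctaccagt
PES1: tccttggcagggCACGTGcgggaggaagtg
MRTO4: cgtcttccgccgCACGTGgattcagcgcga

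These stretches lie at chr19:39846356-39846385 on the minus strand for FBL, chr4:4290068-4290097 on the minus strand for LYAR and chr12:101280083-101280112 on the plus strand for UTP20. Those of NAT10 at chr11:34105602-34105631 and MRTO4 at chr1:19251807-19251836 are on the plus strand, and that of PES1 at chr22:30591880-30591909 is on the minus strand. Counted from the start site of its window, the first base of the E-box was at 7 in FBL, -64 in LYAR, -10 in UTP20, -15 in NAT10, 14 in PES1 and 15 in MRTO4. LYAR has 2 start sites with a window each, and only 1 of these windows holds the E-box. The same is true of GAR1, DDX21 and GNL3. The 6 positions all lay close to the start, on either side of it. A match describes letters in a window and shows no binding.

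The main comparison asked how these genes stood after POU2F3 guides. No member passed an adjusted p of 0.05 across the 4 lines (limma on log2(FPKM + 1), Benjamini-Hochberg over 12387 genes; 0.0161% of all tested genes passed, none of them lower), and the smallest adjusted p of a member was 0.40. The mean log2 ratio of sgPOU2F3 to sgNeg was below 0 in 36 of 36 members, against 53.2% of all tested genes. The members' median was -0.19, beside -0.02 over all tested genes. At an unadjusted p of 0.05, 4 members were lower and 0 higher (7.08% and 4.67% of all tested genes), namely WDR12, LYAR, DKC1 and RRP1B. The genes changed with the lines used. With COR-L311 left out, WDR12, LYAR and DKC1 remained, and with NCI-H526 left out none did. LYAR and DKC1 remained with NCI-H1048 or NCI-H211 left out, where other members also entered. RRP1B was in none of these sets. Without COR-L311 the median was -0.06 and 25 of 36 members had a mean below 0, with 53.9% of all genes. Values near 0 FPKM are compressed on this scale. The filter on low values, which 36 of 36 members passed, does not remove this. The log2 ratios of members with low FPKM are thus drawn toward 0.

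The 4 lines differed in how far the genes stood from their controls. In COR-L311, 36 of 36 members were lower with POU2F3 guides (51.6% of all tested genes) and the median log2 ratio was -0.58. The median percentage of the sgNeg level, taken on FPKM without the added 1, was 65.6%. In NCI-H526, 35 of 36 were lower (53.4% of all tested genes), at a median of -0.21 and 84.5% of sgNeg. In NCI-H1048, 15 of 36 were lower (50.4%), and the median was 0.03. In NCI-H211, 18 of 36 were lower (53.4%), and the median was 0.00. In both day 5 lines the members were thus below their controls with 1 exception (NOP58 in NCI-H526), whereas in both day 4 lines they lay on either side of 0. After quantile normalisation of the columns 35, 34, 16 and 10 of 36 were lower, in the order COR-L311, NCI-H526, NCI-H1048 and NCI-H211, so most members of NCI-H211 were then above their control. A log2 ratio of -0.5 or less was reached by 21 members in COR-L311 (13.2% of all tested genes), 1 in NCI-H526 (3.70%), 0 in NCI-H1048 (3.55%) and 1 in NCI-H211 (14.8%), where RRS1 and RRP12 reached 0.5 or more (2 members, 12.1% of all tested genes). POU2F3 RNA was nearest to its control in COR-L311, where the members were furthest below theirs, and its part in the members' ratios was not tested.

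**Figure D1:**
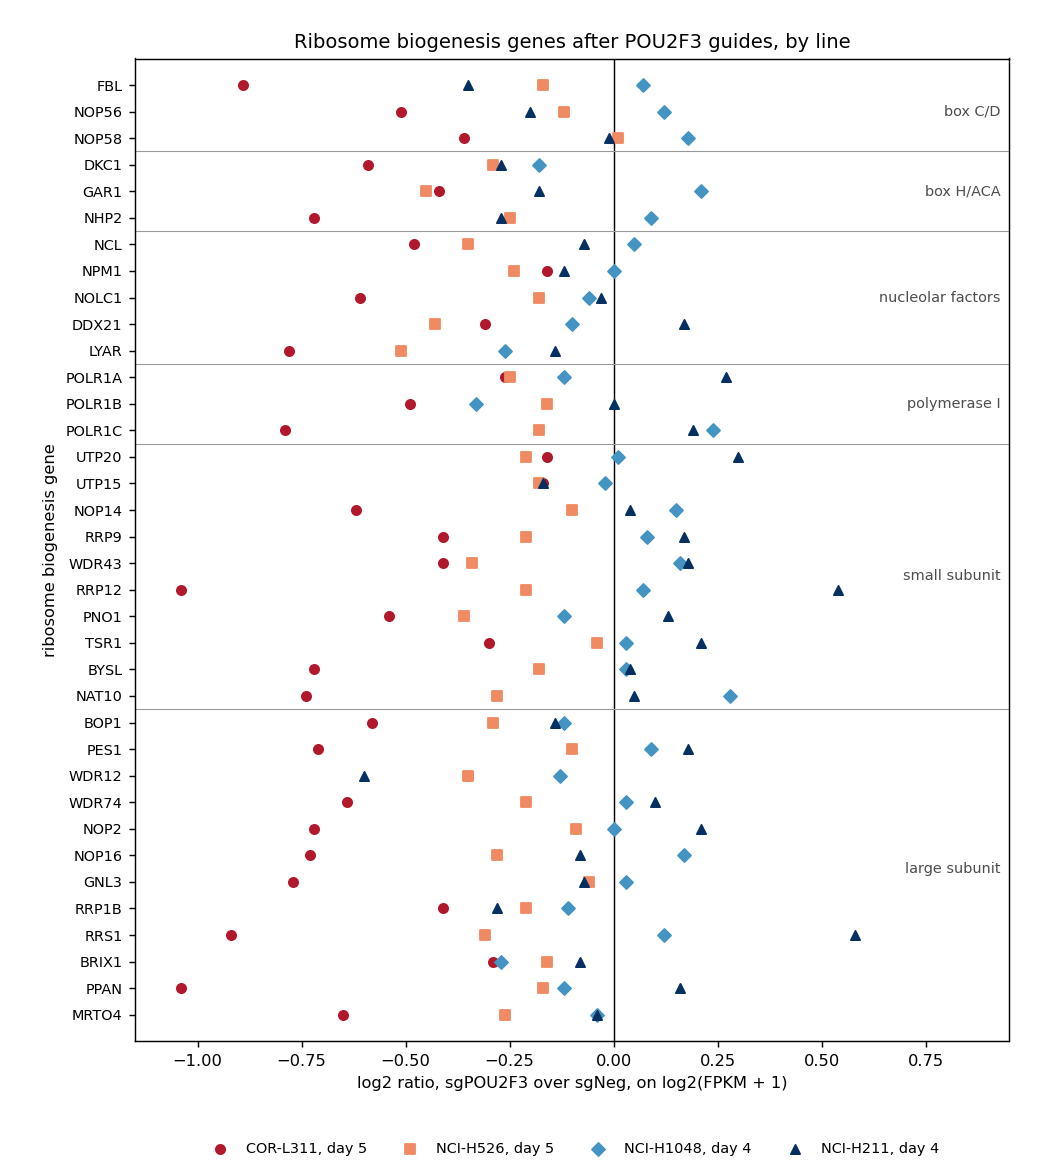
The log2 ratio of sgPOU2F3 to sgNeg on log2(FPKM + 1) (x axis) for each of the 36 genes (y axis, grouped by role), with 1 symbol per line. The COR-L311 points lie left of 0 for 36 of 36 genes and are the leftmost for 30 of them, while the NCI-H1048 and NCI-H211 points fall on both sides of 0.

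COR-L311 gave the lowest of the 4 ratios in 30 of 36 members, as it did in 31.0% of all tested genes. The exceptions were GAR1, NPM1, DDX21, UTP20, UTP15 and WDR12. Lower values in 4 of 4 lines were found for 10 members (12.9% of all tested genes), namely DKC1, NPM1, NOLC1, LYAR, UTP15, BOP1, WDR12, RRP1B, BRIX1 and MRTO4, and higher values in 4 of 4 lines for 0 members (9.81%). Another 13 members were lower in both day 5 lines and higher in both day 4 lines (6.37% of all tested genes). These were POLR1C, UTP20, NOP14, RRP9, WDR43, RRP12, TSR1, BYSL, NAT10, PES1, WDR74, NOP2 and RRS1, of which 8 are small subunit factors.

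FBL, the methyltransferase of the box C/D particles, went from 264 to 142 FPKM in COR-L311, from 244 to 216 in NCI-H526, from 168 to 176 in NCI-H1048 and from 345 to 271 in NCI-H211. It was lower in 3 lines and slightly higher in NCI-H1048, and its log2 ratios averaged -0.34 ± 0.41 (SD over 4 lines, limma adjusted p = 0.47). NOP56, a core protein that holds the same particle together, went from 263 to 184 FPKM in COR-L311, 127 to 138 in NCI-H1048 and 223 to 194 in NCI-H211, and was at 91.9% of its 230 FPKM with sgNeg in NCI-H526. Its ratios ran from -0.51 in COR-L311 to 0.12 in NCI-H1048. NOP58, another core protein of that particle, went from 55.3 to 42.9 FPKM in COR-L311, 56.5 to 57.0 in NCI-H526, 58.6 to 66.4 in NCI-H1048 and 132 to 131 in NCI-H211. It was below its control in COR-L311, at -0.36, and close to or above it in the other lines.

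DKC1, the pseudouridine synthase of the box H/ACA particles and a part of telomerase, was lower in 4 of 4 lines. It went from 129 to 85.9 FPKM in COR-L311, 175 to 143 in NCI-H526, 70.5 to 62.1 in NCI-H1048 and 228 to 188 in NCI-H211. Its log2 ratios averaged -0.33 ± 0.18 (SD over 4 lines, limma adjusted p = 0.40). GAR1 and NHP2, which belong to the same particle, were lower in 3 lines and higher in NCI-H1048. NHP2 went from 186 to 112, 122 to 103, 139 to 148 and 101 to 83.5 FPKM, in the order of lines above (mean -0.29 ± 0.33, adjusted p = 0.47 by limma, n = 4). GAR1 went from 19.9 to 14.6, 34.1 to 24.7, 32.5 to 37.8 and 25.9 to 22.7 FPKM. NHP2 shares 27.4% of its exon bases with RMND5B on the opposite strand, and the library kit does not mark strand.

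Nucleolin (NCL) and nucleophosmin (NPM1) are the abundant nucleolar proteins that chaperone precursor RNA and assembly intermediates. NCL was the most abundant member of the group in each sgNeg column, and it went from 552 to 395 FPKM in COR-L311, 755 to 590 in NCI-H526, 485 to 501 in NCI-H1048 and 705 to 673 in NCI-H211. NPM1 stood closer to its controls, going from 154 to 137, 164 to 139, 328 to 328 and 172 to 159 FPKM. It has 45 pseudogenes named after it, so its reads may be shared with near copies. LYAR, a nucleolar zinc finger protein, had the lowest mean ratio of the 36 genes. It went from 37.1 to 21.3 FPKM in COR-L311, 23.2 to 16.0 in NCI-H526, 20.5 to 17.0 in NCI-H1048 and 58.4 to 53 in NCI-H211. LYAR was thus lower in 4 of 4 lines, more so in the day 5 pair, at -0.42 ± 0.28 (SD over 4 lines, limma adjusted p = 0.40). NOLC1, a chaperone of guide particles, ranged from -0.61 in COR-L311 to -0.03 in NCI-H211, and the RNA helicase DDX21 from -0.43 in NCI-H526 to 0.17 in NCI-H211.

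**Figure D2:**
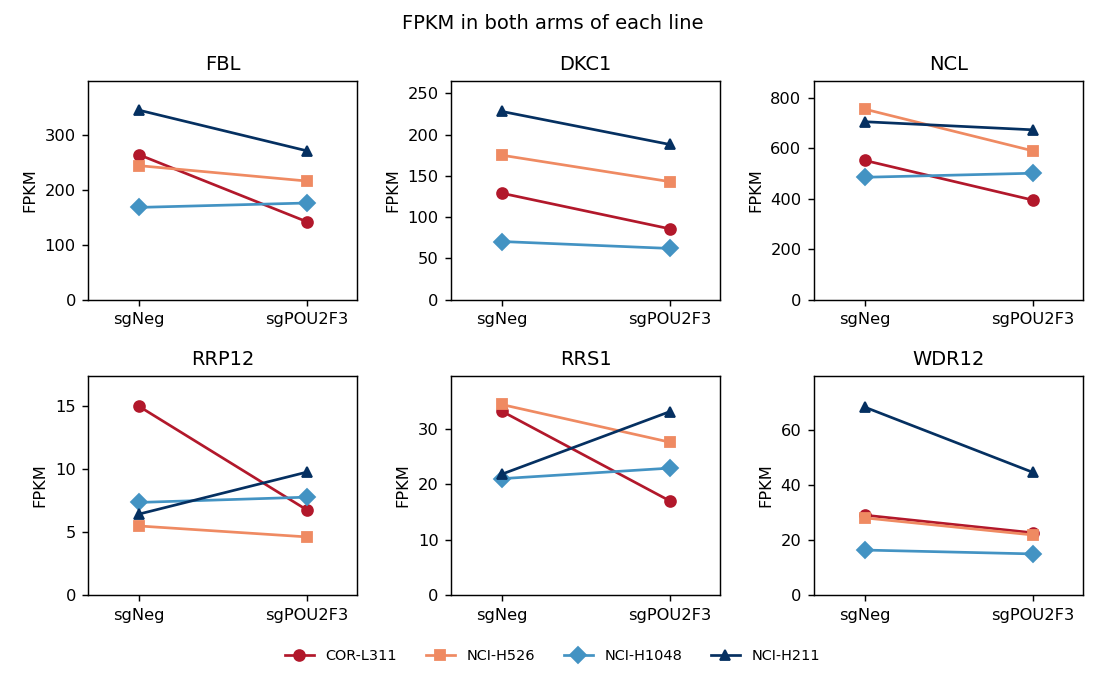
FPKM (y axis, from 0) of FBL, DKC1, NCL, RRP12, RRS1 and WDR12 in the sgNeg and merged sgPOU2F3 columns (x axis), with 1 line of points per cell line and no replicate within an arm. DKC1 and WDR12 slope downward in 4 of 4 lines, whereas RRP12 and RRS1 slope downward in COR-L311 and upward in NCI-H211.

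POLR1A and POLR1B are the 2 largest subunits of RNA polymerase I and together form its catalytic centre. POLR1A went from 9.56 to 7.83 FPKM in COR-L311, 16.2 to 13.5 in NCI-H526, 7.46 to 6.81 in NCI-H1048 and 14.9 to 18.2 in NCI-H211. POLR1B went from 13.9 to 9.58, 14.2 to 12.6, 7.73 to 5.95 and 22.4 to 22.4 FPKM in that order. POLR1A was lower in 3 lines and higher in NCI-H211, and POLR1B was lower in 3 lines and level in NCI-H211 (adjusted p of 0.80 and 0.47 by limma). POLR1C, which RNA polymerase III also uses, was at 56.9% of sgNeg in COR-L311, 87.7% in NCI-H526, 119% in NCI-H1048 and 114% in NCI-H211.

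The 10 small subunit members had medians on opposite sides of 0 in the pairs of lines. Their median log2 ratio was -0.48 in COR-L311 and -0.21 in NCI-H526, with 10 of 10 lower in each (51.6% and 53.4% of all tested genes). It was 0.05 in NCI-H1048 and 0.15 in NCI-H211, with 2 of 10 and 1 of 10 lower (50.4% and 53.4%). The 39 other small subunit factors had medians of -0.05 and -0.01 in these day 4 lines, with 25 and 21 lower, and did not share that split. RRP12, needed for export of pre-ribosomes, went from 15.0 to 6.76 FPKM in COR-L311, 5.48 to 4.61 in NCI-H526, 7.35 to 7.77 in NCI-H1048 and 6.42 to 9.76 in NCI-H211. It lay at 45.1% of sgNeg in COR-L311 and 152% in NCI-H211, the widest spread of the 36 genes (SD 0.66 of the log2 ratio). NAT10, which acetylates cytidines of 18S ribosomal RNA, went from 26.8 to 15.6, 25.9 to 21.1, 17.8 to 21.8 and 26.9 to 28.0 FPKM. NOP14, of the early small subunit processome, went from 37.2 to 23.9, 30.9 to 28.7, 17.5 to 19.5 and 40.9 to 42.1 FPKM, and shares 17.1% of its exon bases with NOP14-AS1.

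The other small subunit factors had narrower ranges over the lines than RRP12. WDR43 and UTP15, early processome subunits, ran from -0.41 to 0.18 and from -0.18 to -0.02. RRP9, the U3-specific protein, ran from -0.41 to 0.17, and BYSL, a late assembly factor, from -0.72 to 0.04. UTP20 and TSR1 ran from -0.21 to 0.30 and from -0.30 to 0.21, and PNO1, a late assembly factor, from -0.54 to 0.13. UTP15 was the only one of the 10 to be lower in 4 of 4 lines, and its level was low (2.15 to 5.67 FPKM, about 54 fragments in the COR-L311 sgNeg library).

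Large subunit factors had a median of -0.68 in COR-L311, the lowest of the 6 roles in that line, and of -0.21 in NCI-H526, -0.02 in NCI-H1048 and -0.06 in NCI-H211. PES1, BOP1 and WDR12 form the PeBoW complex, which processes the large subunit's RNA. WDR12 went from 29.0 to 22.6 FPKM in COR-L311, 28.0 to 21.8 in NCI-H526, 16.3 to 14.9 in NCI-H1048 and 68.3 to 44.6 in NCI-H211. It was lower in 4 of 4 lines and, unlike most members, lowest in NCI-H211 (-0.60), averaging -0.36 ± 0.20 (SD over 4 lines, limma adjusted p = 0.40). BOP1 went from 9.25 to 5.87, 9.82 to 7.84, 4.73 to 4.29 and 16.0 to 14.5 FPKM, lower in 4 of 4 lines (-0.28 ± 0.21, SD, n = 4, limma adjusted p = 0.45). PES1 did not follow its partners in the day 4 lines, where it stood at 0.09 and 0.18, after -0.71 in COR-L311 and -0.10 in NCI-H526.

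RRP1B, a nucleolar protein that binds protein phosphatase, went from 26.7 to 19.8 FPKM in COR-L311, 31.2 to 26.8 in NCI-H526, 22.8 to 21.1 in NCI-H1048 and 37.9 to 31.0 in NCI-H211. Its ratios ran from -0.41 in COR-L311 to -0.11 in NCI-H1048, averaging -0.25 ± 0.13 (SD over 4 lines, limma adjusted p = 0.41). BRIX1 went from 65.5 to 53.5, 80.7 to 72.2, 54.9 to 45.2 and 63.2 to 59.8 FPKM (-0.20 ± 0.10, SD, n = 4, limma adjusted p = 0.45). These 2 genes were lower in 4 of 4 lines by modest amounts, and BRIX1 ran from -0.29 in COR-L311 to -0.08 in NCI-H211.

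PPAN, a Brix-family factor, was at 46.6% of its 27.7 FPKM with sgNeg in COR-L311 and at 112% of 33.8 FPKM in NCI-H211, though 56% of its exon bases also belong to the read-through gene PPAN-P2RY11. RRS1, which helps bring 5S ribosomal RNA into the subunit, went from 33.2 to 17.0, 34.4 to 27.6, 21.0 to 22.9 and 21.8 to 33.1 FPKM. It was at 51.3% of sgNeg in COR-L311 and 152% in NCI-H211. WDR74, NOP2, NOP16, GNL3 and MRTO4 had ratios between -0.77 and -0.64 in COR-L311 and between -0.28 and -0.06 in NCI-H526. GNL3 (nucleostemin) was at -0.77 in COR-L311 and between -0.07 and 0.03 elsewhere. NOP2 shares 54.4% of its exon bases with another annotated gene.

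The contrast between harvest days was tested as the difference between the responses of the 2 pairs of lines. No member passed (0 of 36, limma interaction, smallest adjusted p = 0.83; 0% of the 12387 genes passed, and 5.51% had an unadjusted p under 0.05). The mean ratio of the day 5 lines was below that of the day 4 lines in 35 of 36 members, as in 49.4% of all tested genes, with a median difference of -0.41 beside 0.00 over all genes. At an unadjusted p of 0.05, 5 members differed, and these were lower on day 5 (2.74% of all tested genes): RRS1 at -0.97, RRP12 at -0.93, POLR1C at -0.70, NAT10 at -0.68 and WDR43 at -0.54. The fit has 2 residual degrees of freedom. In simulated data it recovered 0% of differences of 1 and 12% of differences of 2 on the log2 scale. The spread in that simulation came from a fit without the day term, so the recovery may be understated. The lack of calls does not show that the responses were alike.

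The order of the members differed from line to line. Across the 36 genes, Pearson's r between the ratios of a pair of lines ran from -0.22 for COR-L311 and NCI-H211 to 0.22 for NCI-H1048 and NCI-H211, and genes are not independent replicates. Members with the E-box had a median ratio of -0.65 in COR-L311 and those with a window but no E-box -0.49, with 15 genes each. In NCI-H526 both medians were -0.21, in NCI-H1048 they were 0.03 and 0.00, and in NCI-H211 0.05 and -0.08. The ranges of the E-box members and the others overlapped in each line. Of the 6 members printed above, UTP20 was nearest to its control in COR-L311 (-0.16) and FBL furthest below it (-0.89).

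MYC and MYCN were lower where they were abundant, and the part of this in the members' ratios was not tested. MYC went from 484 to 160 FPKM in COR-L311 (33.1%), 194 to 132 in NCI-H1048 (68.0%) and 326 to 200 in NCI-H211 (61.5%), and MYCN from 855 to 588 FPKM in NCI-H526 (68.8%), where MYC was at most 1.10 FPKM. In NCI-H1048 and NCI-H211 the members' medians were 0.03 and 0.00 beside these lower MYC values. MYCL was at -0.44 ± 0.28 across lines (SD, n = 4, limma adjusted p = 0.40).

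Other genes of the pathway were read from lists of assembly factors that exclude the 36. None of their genes passed in the knockout comparison. Small subunit factors (39 genes) had a median of -0.33 in COR-L311, -0.14 in NCI-H526, -0.05 in NCI-H1048 and -0.01 in NCI-H211. Large subunit factors (39 genes) stood at -0.39, -0.13, -0.01 and -0.03 in that order. As with the members, both lists were lowest in COR-L311, next in NCI-H526 and near 0 in the day 4 lines. At an unadjusted p of 0.05, 5 of 39 small subunit and 2 of 39 large subunit genes were lower (7.08% of all tested genes) and 0 higher, so the large subunit share was no larger than that of all genes. The small subunit genes with the smallest p were IMP4, PWP2 and EMG1, at -0.97, -0.41 and -0.29 on the log2 scale. PAK1IP1 and RPF2 were the 2 large subunit genes, at -0.27 and -0.34.

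Among 12 other genes of the guide particle pathway, 2 were lower at an unadjusted p of 0.05 (7.08% of all tested genes). RUVBL1 and RUVBL2, the paired ATPases that help assemble box C/D particles, stood at -0.86 and -1.0 in COR-L311, -0.43 and -0.27 in NCI-H526, 0.07 and 0.02 in NCI-H1048, and -0.47 and -0.44 in NCI-H211. They were thus lower in NCI-H211 too, unlike the members' median there. The other polymerase I genes (12) had a median of -0.18 in COR-L311, -0.04 in NCI-H526, -0.04 in NCI-H1048 and -0.12 in NCI-H211, an order of lines that differs from that of the members. ZNRD1, a small subunit of RNA polymerase I, was lower in 4 of 4 lines, at -0.44 ± 0.12 (SD over 4 lines, limma adjusted p = 0.37). Polymerase III genes (20) had 3 genes lower at an unadjusted p of 0.05 (7.08% of all tested genes), GTF3A, GTF3C2 and POLR3K, at -0.35, -0.28 and -0.37.

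Genes of the ribosome's own proteins followed another order of lines than its builders. The 77 tested cytosolic ribosomal protein genes had a median of -0.33 in COR-L311, where 72 were lower, and of -0.29 in NCI-H211, where 73 were lower. They stood at 0.11 in NCI-H526, where 61 were higher (46.5% of all tested genes), and at 0.22 in NCI-H1048, where 76 were higher (48.7%). NCI-H526 thus had lower biogenesis genes beside higher ribosomal protein genes, and NCI-H211 had level biogenesis genes beside lower ribosomal protein genes. After quantile normalisation the ribosomal protein medians kept their signs at other sizes (-0.08 in COR-L311, 0.29 in NCI-H526, 0.10 in NCI-H1048 and -0.12 in NCI-H211). The 76 mitochondrial ribosomal protein genes had medians of -0.27 in COR-L311, -0.17 in NCI-H526, 0.00 in NCI-H1048 and -0.28 in NCI-H211, and 13 of 76 were lower at an unadjusted p of 0.05 (7.08% of all tested genes), among them MRPL13, MRPS15 and MRPL12.

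**Figure D3:**
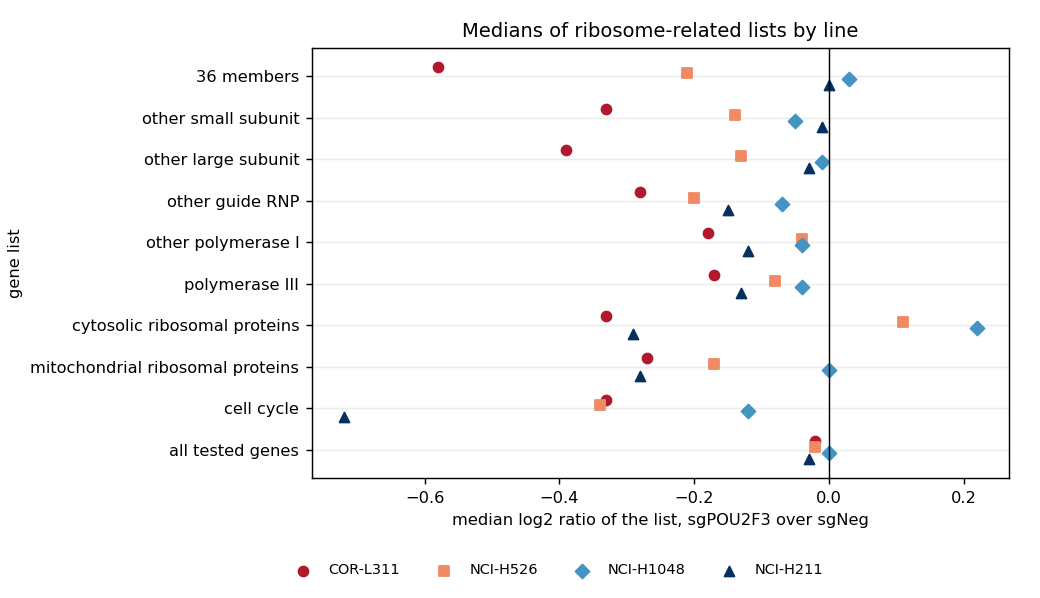
Median log2 ratio of sgPOU2F3 to sgNeg (x axis) of each gene list (y axis), with 1 symbol per line and no error, since each line holds 1 value per arm. The 36 members run from -0.58 in COR-L311 to 0.03 in NCI-H1048, while the cytosolic ribosomal proteins are below 0 in COR-L311 and NCI-H211 and above 0 in NCI-H526 and NCI-H1048.

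Growth-related genes were read beside these values. The 30 cell cycle genes had medians of -0.33 in COR-L311, -0.34 in NCI-H526, -0.12 in NCI-H1048 and -0.72 in NCI-H211, so NCI-H211 had the lowest cell cycle values and level biogenesis genes. The 17 tested p53 target genes had medians between 0.06 in COR-L311 and 0.27 in NCI-H526. No gene of either list passed (smallest adjusted p of 0.31 and 0.39 by limma). At an unadjusted p of 0.05, 16 of 30 cell cycle genes were lower (7.08% of all tested genes), with a median over lines of -0.41 that lay below the members' -0.19, and 3 of 17 p53 target genes were higher (4.67%). These are bulk samples, in which fewer cells of one kind and less RNA per cell cannot be told apart.

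The sgNeg columns themselves stood apart from the parental libraries of the same lines in 2 of 4 cases. Taken as the members' median less the median of 12180 genes, both on the log2 scale, NCI-H211 had 2.41 in the parental library, 1.49 with sgNeg and 1.56 with sgPOU2F3. NCI-H1048 had 1.39, 0.61 and 0.68. COR-L311 had 1.46, 1.32 and 0.62, and NCI-H526 had 1.08, 0.95 and 0.71. The infected controls of the day 4 lines were thus already lower relative to their parental libraries, and those of the day 5 lines nearly level with them. The tables were normalised separately and hold 1 library per point, so no test was made.

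The second comparison asked whether the 4 lines chosen for knockout differed from the 10 others before editing. No member passed (0 of 36, limma, smallest adjusted p = 0.63; 0.250% of 13226 genes passed), and 0 had an unadjusted p under 0.05 (8.66% of all tested genes). In 0 members did the groups fail to overlap, as they did in 0.650% of all tested genes. The difference was above 0 in 32 of 36 members (49.8% of all genes), with a median of 0.20 on the log2 scale. Without NCI-H211 that median was 0.00, and without NCI-H526 it was 0.39, so its size depends on which of the 4 lines are counted. In simulated data this fit recovered 12% of differences of 1 and 62% of differences of 2, with 10 false calls among 13086 genes.

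LYAR had the smallest p. It was 45.9 FPKM in COR-L311, 22.2 in NCI-H526, 36.9 in NCI-H1048 and 99.7 in NCI-H211, against 6.54 to 75.3 FPKM with a median of 17.9 in the 10 others. The 4 lines were above the median of the others but within their range, at a difference of 1.0 (SE 0.52, limma adjusted p = 0.63). WDR12 was 25.2 to 102 FPKM in the 4 lines and 12.8 to 68.4 in the others (difference 0.76, limma adjusted p = 0.67), with NCI-H211 the highest of 14. DKC1 was 158 FPKM in COR-L311, 205 in NCI-H526, 86.9 in NCI-H1048 and 346 in NCI-H211, against 60.5 to 235 in the others. Values of the 4 lines above the median of the 10 others were found for 6 members (NOP58, GAR1, DDX21, LYAR, WDR43 and WDR12), as for 11.3% of all tested genes.

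NOP14 was 47.5 FPKM in COR-L311, 25.0 in NCI-H526, 33.0 in NCI-H1048 and 65.2 in NCI-H211, against 9.39 to 56.2 in the others. GAR1 was 22.0 to 42.4 FPKM in the 4 lines and 9.56 to 57.1 in the others, and NAT10 26.4 to 51.7 and 15.2 to 52.2. NOP56 was 132 to 338 FPKM and 96.4 to 290, and WDR74 36.5 to 92.2 and 30.4 to 80.3. In each of these 5 genes the groups overlapped over most of their range. FBL, NPM1 and NOP58 also overlapped, with NPM1 at 89.3 to 239 FPKM in the 4 lines and 54.3 to 441 in the others, and FBL at 231 to 570 and 152 to 806.

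The larger contrast lay between single lines and was shared by the members. The median member was 80.5 FPKM in NCI-H82, 69.2 in NCI-H211 and 62.4 in DMS114, and 21.2 in NCI-H146, 21.1 in NCI-H128 and 17.5 in DMS79. Next below DMS114 came NCI-H524 at 42.9, NCI-H69 at 41.8, NCI-H446 at 41.4, COR-L311 at 39.5, NCI-H1048 at 35.2, NCI-H510 at 31.7, NCI-H526 at 29.2 and NCI-H889 at 28.0 FPKM. With 1 library per line, neighbours in this order cannot be told apart, and the 4 knockout lines stood from place 2 to place 10. NCI-H82 was above the 14-line median for 36 of 36 members and held the highest value for 15, while NCI-H211 held the highest for 11. DMS79 and NCI-H128 were above the median for 0 members and held the lowest value for 17 and 9. Between the highest and the lowest line, LYAR spanned 15.2-fold, NOP16 10.8-fold and RRP9 10.6-fold, and WDR74 and POLR1C 3.03-fold and 3.15-fold.

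**Figure D4:**
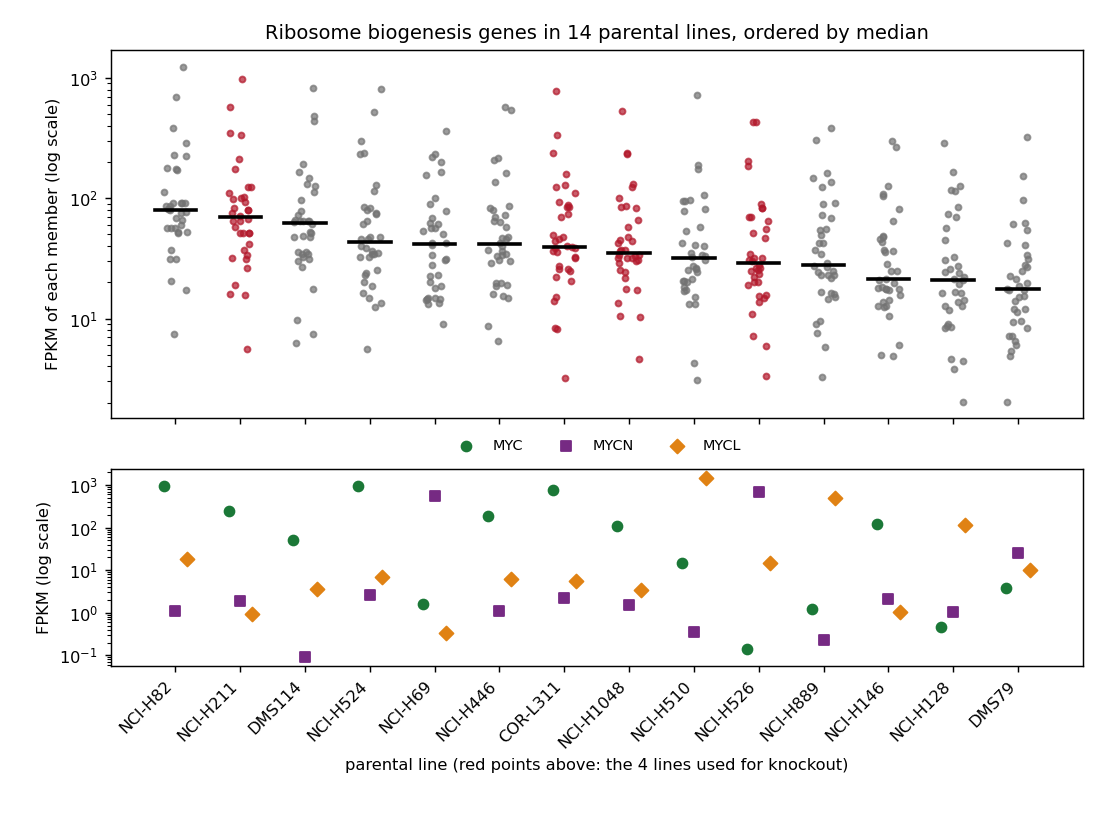
FPKM of each of the 36 genes (upper y axis, log scale) in 14 parental lines, with a bar at the median and the 4 knockout lines in red, above FPKM of MYC, MYCN and MYCL (lower y axis, log scale) in the same lines. The medians run from 80.5 FPKM in NCI-H82 to 17.5 in DMS79, and the red lines are spread through the order.

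Over the 14 lines, the mean Pearson correlation between 2 members was 0.62, beside 0.00 over all tested genes, 0.50 among cytosolic ribosomal proteins, 0.39 among the other small subunit and large subunit factors and 0.09 among cell cycle genes. Lines share library depth and composition in these values, which are a description. PES1 and NOP16 followed the mean of the other members most closely (0.91), and DKC1 and POLR1B least (0.51 and 0.52). The members' median rose and dropped with that of the other small subunit factors (r = 0.96, n = 14 lines), the other large subunit factors (0.95), mitochondrial ribosomal proteins (0.91) and cytosolic ribosomal proteins (0.65). It had r = 0.11 with the cell cycle genes and r = -0.75 with the median of all tested genes, which itself varied little, from 3.51 to 3.70 on the log2 scale.

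With MYC the members' median had r = 0.60 over the 14 lines (Spearman 0.64), and 0.52 without NCI-H128 and NCI-H526, the lines farthest from the median of MYC. With MYCN it had r = -0.19, with MYCL -0.30 and with the sum of the 3 genes 0.32. NCI-H82 and NCI-H524 had 925 and 958 FPKM of MYC and NCI-H211 had 249, while DMS114, the next in the order, had 52.4. NCI-H526 with 694 FPKM of MYCN and NCI-H510 with 1455 FPKM of MYCL lay in the lower part of the order, and DMS79, the lowest, had 3.76, 25.0 and 10.2 FPKM of MYC, MYCN and MYCL. The sum of the 3 genes was 124, 114 and 38.9 FPKM in NCI-H146, NCI-H128 and DMS79, the lowest lines in the order. It was 56.1 FPKM in DMS114, and its part in the members' levels was not tested.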

How the data were processed

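RNA was measured in 26 libraries: 12 of the knockout experiment and 14 parental. Values are FPKM, a fragment count scaled to transcript length and library size, in 5 tables that the authors deposited: 1 per knockout line, and 1 of parental lines that the labels call RPKM. The submitters' processing notes name TopHat2, Cufflinks, Cuffdiff and hg19, and versions, annotation, strand setting and scaling are not given in the sources used here. Each knockout table holds 1 sgNeg column and 1 column for both POU2F3 guides. How the guides were merged is not stated, so tests within a line could not be made. The members and lists were chosen with earlier results of these data known.

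Values were taken as log2(FPKM + 1), for genes with at least 1 FPKM in at least 4 columns. Tests used limma 3.58.1 (R 4.3.3) and its variance trend: arm with the line as a block (8 columns, 3 residual degrees of freedom), arm by day, and 4 parental lines against 10. All tests were two-sided, with Benjamini-Hochberg adjustment over all tested genes and a threshold of 0.05. The same-line pairing comes from the cell line itself. Nothing in the labels says whether libraries came from separate cultures. Within a line, genes were counted by a log2 ratio of 0.5. On simulated data the knockout fit recovered 12% of changes of 0.5, 50% of changes of 1 and 90% of changes of 2, with 6 false calls among 12302 genes.

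Counts were not used, as the values are FPKM. Estimates of depth rest on the smallest FPKM steps and GENCODE lengths on GRCh38, and the least covered member had about 44 fragments (UTP15 in NCI-H128). Shared exon bases come from the same annotation. Promoter windows are from RefSeq (GRCh38.p14), 300 bases long. Alternatives were a pseudocount of 0.1, no filter, a filter of 5 FPKM, quantile normalisation, centring, no variance trend, no block and leaving out each line. Named genes are the 36 members, with values in each line for the 8 smallest p of each comparison and for 8 members picked by role, and up to 3 genes per list and direction. POU2F3, MYC, MYCN and MYCL were read as well.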

Additional observations from a re-analysis of the deposited data

Results flagged for a closer look

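Several members had 1 line far from the other 3 of its group, by the gap to its nearest neighbour as a share of the whole range. About 5% of such groups of 4 are picked up by chance, and 2 of 36 ratios and 5 of 36 parental levels in the 4 knockout lines were, with 0 of 36 in the 10 other lines. The members are not independent (mean r of 0.62 over the 14 lines), so these counts cannot be judged against that 5%. The line picked was NCI-H211 in each parental case but RRP9, and NCI-H211 was above the 14-line median for 34 of 36 members. NCI-H211 was high in the parental level of NOP58 (7.74 on log2(FPKM + 1), nearest line 6.41), POLR1C (6.09 and 5.18), WDR43 (6.64 and 5.25) and BRIX1 (6.97 and 6.48). NCI-H1048 was low in the parental level of RRP9 (4.50, nearest line 5.04). After knockout, GNL3 stood at -0.77 in COR-L311 with the nearest line at -0.07, and UTP15 at -0.02 in NCI-H1048 with the nearest at -0.17.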

How the results depend on the processing

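No alternative gave a member a call in the knockout, day or parental comparison. Without the replicate block, 0 of 36 members were called and the median was -0.19. As neither the paired nor the unpaired fit called a member, these counts alone cannot show whether the pairing matters. The smallest adjusted p of a member (limma) was larger without the block than with it. Leaving out 1 line gave knockout medians from -0.27 to -0.06 and parental medians from 0.00 to 0.39. The 1 member at least 0.5 lower in NCI-H526 became 0 under centring and under quantile normalisation. Under quantile normalisation, NOP58 and TSR1 turned to 0.03 and 0.02 after knockout, and the day difference of NPM1 and BRIX1 to 0.01 and 0.05. RRP9 turned to 0.00 in the parental comparison under centring. The cause was not tested.

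Leaving out 1 line turned the sign of 11 of 36 mean ratios after knockout, in each case without COR-L311. The ranges were NAT10 -0.32 to 0.02, NOP14 -0.23 to 0.03, NOP2 -0.27 to 0.04, NOP58 -0.12 to 0.06, PES1 -0.24 to 0.06, POLR1C -0.26 to 0.08, RRP12 -0.39 to 0.13, RRP9 -0.18 to 0.01, RRS1 -0.37 to 0.13, TSR1 -0.10 to 0.07 and UTP20 -0.12 to 0.05, where NCI-H526 also did so. In the parental comparison 20 of 36 turned: BOP1 -0.06 to 0.55, BYSL -0.01 to 0.27, FBL -0.21 to 0.23, MRTO4 -0.16 to 0.45, NHP2 -0.27 to 0.05, NOLC1 -0.22 to 0.16, NOP16 -0.02 to 0.47, NOP2 -0.27 to 0.23, NPM1 -0.43 to 0.04, PNO1 -0.01 to 0.55, POLR1A -0.08 to 0.31, POLR1C -0.17 to 0.15, PPAN -0.16 to 0.39, RRP12 -0.28 to 0.20, RRP1B -0.09 to 0.35, RRP9 -0.18 to 0.19, RRS1 -0.16 to 0.20, TSR1 -0.04 to 0.58, UTP15 -0.28 to 0.19 and UTP20 -0.29 to 0.14. All other recomputed values, 1348 in number, kept their direction.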

Other observations

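IMP4, a protein of the U3 particle that starts small subunit assembly, had the smallest knockout p of the assembly factors outside the 36. It went from 262 to 124 FPKM in COR-L311, 334 to 181 in NCI-H526, 109 to 67.5 in NCI-H1048 and 110 to 46.1 in NCI-H211, lower in 4 of 4 lines at -0.97 ± 0.24 (SD over 4 lines, limma adjusted p = 0.21). In the parental lines it was 140 to 327 FPKM in the 4 lines with POU2F3 and 23.0 to 143 in the 10 others, a difference of 1.91 (limma adjusted p = 0.060), with 3 of the 4 above each of the others.

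Its neighbours on the chromosome, looked up after these values were seen, stood the same way. PTPN18, a tyrosine phosphatase gene on 1 side, was at -1.12 ± 0.63 after knockout (SD, n = 4 lines, limma adjusted p = 0.37) and 41.4 to 201 FPKM in the 4 parental lines against 4.24 to 36.9 in the others, so these groups did not overlap (0.650% of all tested genes). CCDC115, on the other side, was at -0.64 ± 0.38 (adjusted p = 0.39 by limma, n = 4), and its exons overlap those of IMP4 on the opposite strand. The next expressed genes, MZT2B and SMPD4, were at -0.30 and -0.21. Of these 3 genes none passed after knockout under the 11 alternatives run. In the parental comparison IMP4 passed under 2 of 20 alternatives, with adjusted p from 0.022 to 0.21, CCDC115 under 1 of 20 (0.028 to 0.41) and PTPN18 under 0.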
